A study of Mus musculus with 6 samples.

Results

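The 30 genes described here carry out or control the synthesis of cholesterol and fatty acids. They were chosen as a list by name, with no measured value in the rule but with earlier results of these data known. All 30 were found among the 26049 genes of the deposited matrix. By role, 18 are enzymes of cholesterol synthesis, 6 are enzymes of fatty acid synthesis, 5 are regulators of both pathways and 1, Stard4, carries sterols between membranes. Their RNA was counted as unique molecular identifiers (UMIs) in single nuclei of mouse hippocampus, with a 10x Genomics kit that reads the 3' end of transcripts. All mice were male and of the Tau P301S (PS19) line, a model of tau pathology in which every animal, controls included, carries a mutant human tau transgene. Mice had a sham operation or a traumatic brain injury (TBI), and a viral vector, AAV-GFP or AAV-VEGFC, the second of which codes for VEGFC, known for driving the growth of lymphatic vessels. There was 1 library for each of sham AAV-GFP right, sham AAV-VEGFC right, TBI AAV-GFP right, TBI AAV-GFP left, TBI AAV-VEGFC right and TBI AAV-VEGFC left hippocampus, 6 in all. Ages, the time between injury and tissue collection, and the number of mice behind a library are not given in the labels. The labels also do not say whether left and right hippocampi came from the same mice, so p-values measure the spread between these 6 libraries only.

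Cholesterol does not cross from blood into brain, so brain cells make their own, starting from acetyl-CoA and passing through mevalonate, squalene and lanosterol. Fatty acid synthesis starts from the same acetyl-CoA, and both products go into myelin, which oligodendrocytes make, and into the membranes of all cells. The transcription factors SREBP-1 and SREBP-2, products of Srebf1 and Srebf2, raise transcription of these enzymes when sterols are low. Scap escorts them to the Golgi for activation, and Insig1 and Insig2 hold them back in the endoplasmic reticulum when sterols are plentiful.

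Promoter sequence was available for 24 of the 30 members, as 32 windows of 300 bases around RefSeq start sites (250 bases before the start and 50 after, build GRCm38.p6). No window was found for Scd1, Scd2, Fdft1, Sqle, Fdps and Stard4. Both strands were searched for 4 motifs, none of which contains another: TCACNCCAC, a core of the sterol regulatory element that SREBPs bind, CACGTG, an E-box that they can also bind, CCAAT, the site of NF-Y, and GGGCGG, a site of Sp1, both of which act beside SREBPs. The sterol core was found in 1 of 32 windows, that of Hmgcs1, and in 1.24% of all 32851 windows. The E-box was found in 6 of 32 windows, in Dhcr7, Hsd17b7, Insig1, Sc5d and Scap, and in 7.15% of all windows. CCAAT was found in 21 of 32 windows, from 20 genes, and in 37.4% of all windows. GGGCGG was found in 24 of 32 windows, also from 20 genes, and in 35.7% of all windows. A match describes letters only and was not tested as a site. The 4 stretches of 150 bases below are shown for Hmgcs1, whose window held the sterol core, for Srebf2 and Insig1 of the feedback arm, and for Elovl6, whose level set neuron cluster 2 apart. Each is on the plus strand and lies wholly before the annotated gene, and capitals mark every match to the 4 motifs on either strand.
Hmgcs1 (chr13:119690201-119690350): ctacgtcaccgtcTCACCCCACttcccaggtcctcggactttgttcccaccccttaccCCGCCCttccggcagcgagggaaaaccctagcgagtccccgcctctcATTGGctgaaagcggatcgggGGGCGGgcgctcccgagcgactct
Srebf2 (chr15:82147031-82147180): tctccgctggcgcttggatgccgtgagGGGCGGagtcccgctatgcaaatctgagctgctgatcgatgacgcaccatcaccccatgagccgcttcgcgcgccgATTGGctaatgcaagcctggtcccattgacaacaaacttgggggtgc
Insig1 (chr5:28071213-28071362): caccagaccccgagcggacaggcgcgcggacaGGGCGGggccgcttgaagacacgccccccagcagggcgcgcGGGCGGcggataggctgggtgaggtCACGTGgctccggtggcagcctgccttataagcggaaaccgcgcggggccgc
Elovl6 (chr3:129532205-129532354): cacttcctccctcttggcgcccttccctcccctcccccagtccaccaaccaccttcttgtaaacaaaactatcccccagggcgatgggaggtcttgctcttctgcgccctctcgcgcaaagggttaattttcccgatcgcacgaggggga
In Hmgcs1 the sterol core begins 137 bases before the RefSeq start site and the CCAAT match, read on the other strand as ATTGG, begins 45 bases before it. The Insig1 stretch holds 1 E-box and 2 Sp1 matches, the Srebf2 stretch 1 NF-Y and 1 Sp1 match, and the Elovl6 stretch no match to these letters.

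The files held 28650 nuclei, 3676 to 6002 per library, in 9 classes and 32 clusters named by the authors. Libraries held 15358208 to 18379148 UMIs, and 91 barcodes occurred in more than 1 library, on 182 nuclei. Oligodendrocyte precursor cells are written OPC. In 7 of the 9 classes the own marker list had the highest sum. The fibroblast class held 4 astrocyte markers at 1357 to 2443 summed UMIs per 1000000, above its own 4 fibroblast markers at 729 to 1085. The mixed neuron class held 4 OPC markers at 504 to 689 and 4 choroid plexus markers at 529 to 848, above its excitatory (249 to 388) and inhibitory (196 to 399) neuron markers. The 4 choroid plexus markers were found in the other neuron and glial classes too, at sums that differed between libraries. They were 323 to 731 in astrocytes, 414 to 976 in oligodendrocytes, 332 to 723 in OPC and 464 to 1461 in microglia. In inhibitory neurons they were 393 to 585 and in excitatory neurons 179 to 415. Values of members in all these classes stand beside those of foreign markers, whose part was not tested. Microglia and fibroblasts were thin, with as few as 40 and 27 nuclei in a library. Member genes spanned 5553 bases (Tm7sf2) to 271980 bases (Acaca, chr11:84129672-84401651, mm10). The sources used here do not say how reads in introns and on overlapping genes were counted, so levels are not compared between genes. Tm7sf2 overlaps Vps51 on the same strand, and reads at their overlap are uncertain.

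Of the 6 fatty acid enzymes, Acaca, Scd1 and Scd2 were highest in oligodendrocytes, Elovl6 was highest in choroid plexus, and Fasn and Acly had no class that was highest throughout. Levels are given as CPM, a gene's UMIs per 1000000 UMIs, summed over the nuclei of a class in a library, so they are relative to all RNA of those nuclei, and fewer nuclei that express a gene or less RNA per nucleus cannot be told apart. Because the authors formed the classes from the same expression values, differences between classes are descriptions and have no test. The summed level of the 6 fatty acid enzymes in oligodendrocytes had a lowest value of 1356 CPM, a median of 1480 and a highest of 1545 over the 6 libraries. In astrocytes the same sum had a median of 715 CPM (695 to 737), in OPC 646 (630 to 745) and in excitatory neurons 272 (253 to 285). The oligodendrocyte range lay above that of every other class. Most UMIs in that sum were those of Acaca and Scd2, so it mainly follows those genes and is not a level of the whole pathway. Nuclei differed in total RNA, with a median over libraries of 4725 UMIs per excitatory neuron nucleus, 1848 per astrocyte and 1417 per oligodendrocyte, so an order in CPM can differ from one in UMIs per nucleus, a scaling added after seeing the data. Per nucleus the sum was 2.04 to 2.21 UMIs in oligodendrocytes and 1.57 to 2.30 in mixed neurons, which overlapped.

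Acaca, which makes the malonyl-CoA from which fatty acids are built, was highest in oligodendrocytes in all 6 libraries. Its level there was 522 CPM in sham AAV-GFP right, 578 in sham AAV-VEGFC right, 555 in TBI AAV-GFP right, 592 in TBI AAV-GFP left, 551 in TBI AAV-VEGFC right and 555 in TBI AAV-VEGFC left. The next class, astrocytes, held 232 to 276 CPM, and excitatory neurons, with the lowest mean, held 111 to 129. The 6 oligodendrocyte values did not overlap those of any other class, and their mean was 2.29 times the astrocyte mean.

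Scd2, a desaturase that puts a double bond into fatty acids and is the main form in brain, was also highest in oligodendrocytes and second in astrocytes. In oligodendrocytes it was 824 CPM (sham AAV-GFP right), 805 (sham AAV-VEGFC right), 769 (TBI AAV-GFP right), 818 (TBI AAV-GFP left), 746 (TBI AAV-VEGFC right) and 677 (TBI AAV-VEGFC left). In the order of medians, astrocytes followed with 351 CPM (344 to 379), then OPC with 234 (192 to 282), choroid plexus epithelium with 158 (122 to 190), fibroblasts with 126 (102 to 153) and microglia with 102 (61.5 to 173). Neurons had the lowest medians, at 71.4 CPM (59.8 to 86.8) in the mixed class, 59.9 (50.6 to 70.1) in excitatory and 59.3 (48.4 to 74.7) in inhibitory neurons. The oligodendrocyte and astrocyte ranges stood clear of their neighbours in this order, whereas choroid plexus, fibroblasts and microglia overlapped each other, the 3 neuron classes did too, and microglia reached down into the neuron ranges.

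Scd1, the paralog of Scd2 that lies beside it on chromosome 19, had 212 UMIs in all. It was highest in oligodendrocytes in all 6 libraries, at 14.3, 19.3, 18.0, 15.7, 19.8 and 13.4 CPM in the order of libraries above, from 54 UMIs. Astrocytes held 4.25 to 7.34 CPM, choroid plexus 0 to 12.4, mixed neurons 0 to 9.97, OPC 0 to 3.23, excitatory neurons 0.81 to 1.47 and inhibitory neurons 0 to 1.12, and no UMI was found in microglia or fibroblasts. The oligodendrocyte range did not overlap any other. The 2 genes resemble each other closely, and no source used here says how reads that match both were counted, so the split between them is uncertain.

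Elovl6, which lengthens fatty acids past palmitate, departed from this order. It was highest in choroid plexus epithelium, at 250, 241, 242, 290, 230 and 253 CPM in the 6 libraries in the order above. OPC came second with 142 to 188 CPM, mixed neurons held 79.8 to 116, inhibitory neurons 84.2 to 94.9, excitatory neurons 67.6 to 78.1, oligodendrocytes 55.2 to 92.1 and astrocytes 50.5 to 66.8. In CPM, choroid plexus did not overlap OPC, and OPC did not overlap any class below it. Per nucleus, choroid plexus was highest in 5 of 6 libraries, at 0.50 to 0.87 UMIs, and overlapped mixed neurons (0.35 to 0.61). OPC then held 0.24 to 0.42 UMIs and overlapped mixed, inhibitory (0.31 to 0.56) and excitatory neurons (0.26 to 0.49). Between OPC and oligodendrocytes, of which the first give rise to the second, 10 members had at least 20 UMIs over the pair in every library. Acaca and Scd2 were higher in oligodendrocytes without overlap, by 2.67 and 3.35 times in mean level, and Elovl6 was higher in OPC, by 2.34 times. Among all 5772 genes with that depth, 21.1% were higher in oligodendrocytes without overlap and 19.5% higher in OPC.

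The other 2 fatty acid enzymes did not single out a class. Acly, which makes acetyl-CoA from citrate in the cytosol, had its highest mean in microglia (23.6 to 103 CPM from 32 UMIs), where it overlapped 6 classes. Fasn, which builds palmitate, had its highest mean in astrocytes (19.9 to 28.9 CPM) and overlapped oligodendrocytes, OPC and fibroblasts. Its lowest mean was in excitatory neurons, at 5.21 to 7.22 CPM.

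**Figure D1:**
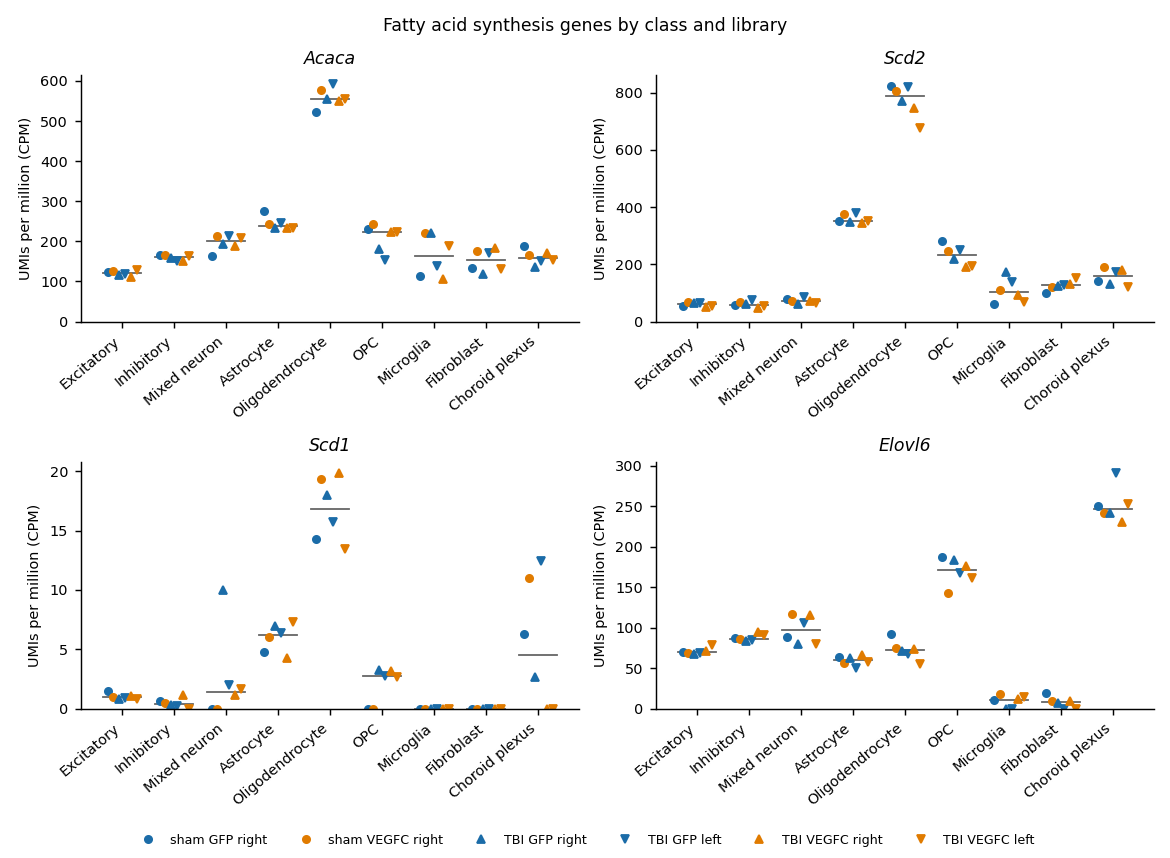
Levels of 4 fatty acid synthesis genes in CPM (vertical axes, from 0) in the 9 classes, with 1 point per library and a line at the median of the 6 libraries. The 6 oligodendrocyte points lie above all others for Acaca, Scd2 and Scd1, and the 6 choroid plexus points (230 to 290 CPM) lie above all others for Elovl6.

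In CPM, astrocytes held the highest levels of the cholesterol enzyme Msmo1 and of the regulator Srebf1. The summed level of the 18 cholesterol enzymes was 405 CPM in astrocytes (370 to 444), 285 in oligodendrocytes (228 to 346), 243 in inhibitory neurons (203 to 262) and 238 in excitatory neurons (210 to 250). The astrocyte range stood above those 3 and overlapped those of mixed neurons (263 to 374) and choroid plexus (229 to 379). In UMIs per nucleus this order turned: the sum was 0.604 to 0.869 in astrocytes, 0.889 to 1.30 in excitatory neurons and 0.893 to 1.26 in inhibitory neurons.

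Msmo1, an oxidase that strips methyl groups from sterols after lanosterol, was highest in astrocytes in all 6 libraries. Its astrocyte level was 115 CPM in sham AAV-GFP right, 77.2 in sham AAV-VEGFC right, 104 in TBI AAV-GFP right, 104 in TBI AAV-GFP left, 114 in TBI AAV-VEGFC right and 88.1 in TBI AAV-VEGFC left. Oligodendrocytes came next with 28.3 to 62.8 CPM, excitatory neurons held 18.6 to 24.5 and inhibitory neurons, with the lowest mean, 14.1 to 20.6. No other class reached the lowest astrocyte library, and the astrocyte mean was 2.30 times that of oligodendrocytes.

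Srebf1, which codes for the SREBP that mainly drives fatty acid genes, was also highest in astrocytes in all 6 libraries, at 81.1, 85.5, 75.7, 81.2, 67.4 and 67.2 CPM in the same order. In oligodendrocytes it was 53.2, 50.8, 34.4, 76.2, 28.8 and 64.1 CPM, so the 2 ranges overlapped although the astrocyte value was higher in each library. Choroid plexus held 13.1 to 41.5 CPM, fibroblasts 10.1 to 43.7, OPC 6.78 to 41.9, microglia 0 to 17.2, mixed neurons 1.19 to 9.97, inhibitory neurons 3.72 to 6.24 and excitatory neurons 3.08 to 5.39. Srebf2, whose SREBP mainly drives cholesterol genes, varied less between classes. It had medians of 93.4 CPM in astrocytes (85.5 to 116), 88.0 in oligodendrocytes (66.6 to 104), 77.1 in choroid plexus (59.0 to 99.6), 69.5 in mixed neurons (61.5 to 81.6), 59.5 in OPC (45.7 to 70.3), 56.5 in microglia (23.6 to 94.3), 51.6 in excitatory neurons (43.8 to 58.3), 45.4 in inhibitory neurons (39.0 to 54.1) and 27.0 in fibroblasts (20.3 to 64.3). Neighbours in this order overlapped.

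The 2 Insig genes differed in where they were highest. Insig1, itself a target of SREBPs, had its highest mean in oligodendrocytes (25.2 to 50.8 CPM) and overlapped astrocytes (22.1 to 36.4), choroid plexus (8.73 to 45.7), OPC (6.39 to 47.5) and mixed neurons (4.99 to 28.3). Inhibitory neurons (8.74 to 14.3) and excitatory neurons (7.89 to 15.3) lay below oligodendrocytes and astrocytes, fibroblasts held 0 to 19.0 CPM and microglia 0 to 20.5. Insig2 had its highest mean in the fibroblast class (21.9 to 171 CPM from 65 UMIs) and overlapped all 8 other classes: microglia 18.4 to 118 CPM, choroid plexus 43.0 to 63.3, astrocytes 41.2 to 59.8, inhibitory neurons 36.6 to 54.9, excitatory neurons 40.3 to 45.2, mixed neurons 25.1 to 45.9, oligodendrocytes 33.8 to 53.8 and OPC 25.1 to 41.5. Scap had its highest mean in oligodendrocytes (38.7 to 60.5 CPM) and overlapped 6 classes.

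**Figure D2:**
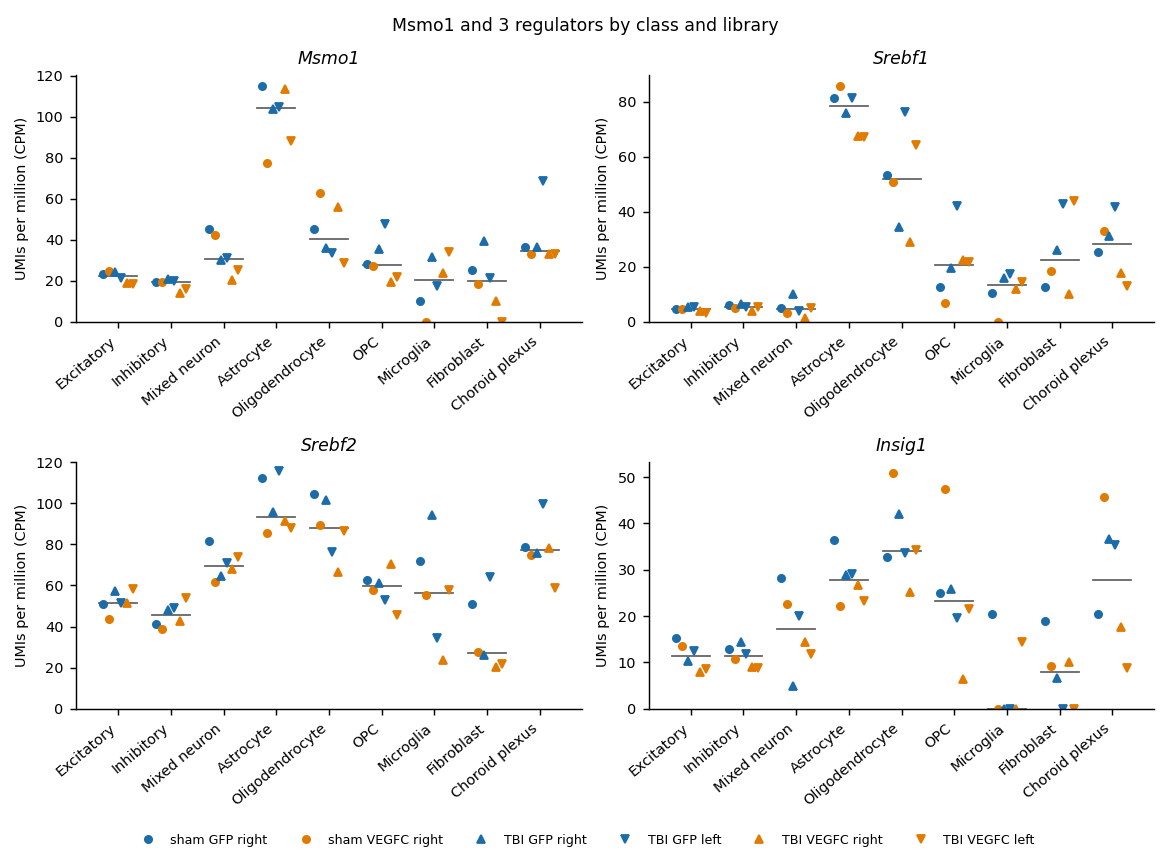
Levels of Msmo1, Srebf1, Srebf2 and Insig1 in CPM (vertical axes, from 0) in the 9 classes, with 1 point per library and a line at the median of the 6 libraries. For Msmo1 the 6 astrocyte points (77.2 to 115 CPM) lie above all others, and for Srebf1 only 1 oligodendrocyte point (76.2 CPM) reaches the astrocyte range.

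In all, 6 of 30 members had the same highest class in all 6 libraries, and 27.3% of the 16075 genes with at least 20 UMIs in every library did. The 6 were Msmo1 and Srebf1 in astrocytes (3.37% of those genes), Acaca, Scd1 and Scd2 in oligodendrocytes (4% of those genes) and Elovl6 in choroid plexus (5.9% of those genes). The share among members was thus no higher than that among all genes, and no result about the members is drawn from it. When levels were taken as UMIs per nucleus, 5 members had 1 highest class and only Srebf1 and Scd2 were among the 6 above. Per nucleus, Acaca was highest in mixed neurons in 5 of 6 libraries (0.76 to 1.22 UMIs, against 0.76 to 0.87 in oligodendrocytes), and Scd2 was highest in oligodendrocytes in all 6 (1.06 to 1.21). Averaging CPM over nuclei left 4 of the 6, without Srebf1 and Scd1.

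The remaining 17 cholesterol enzymes had no class that was highest throughout. Hmgcs1, which makes HMG-CoA ahead of mevalonate, had its highest mean in astrocytes (30.5 to 49.5 CPM) and was 13.5 to 24.7 CPM in oligodendrocytes, below astrocytes in each library. Acat2, a thiolase that starts the pathway, had its highest mean in mixed neurons (15.0 to 25 CPM). Of the mevalonate kinases, Mvk had its highest mean in fibroblasts (0 to 21.9 CPM from 4 UMIs) and Pmvk in OPC (3.39 to 28.2 CPM from 28 UMIs), and each overlapped all 8 other classes. Mvd, the decarboxylase after them, had its highest mean in microglia (0 to 15.7 CPM from 3 UMIs), Idi1, the isomerase of the next step, in astrocytes (11.9 to 17.9), and Fdps, which makes farnesyl diphosphate, in choroid plexus (9.43 to 31.1).

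The enzymes from squalene onward were as spread out. Fdft1, squalene synthase, had its highest mean in choroid plexus (28.4 to 63.3 CPM), Sqle, which epoxidises squalene, in OPC (22.4 to 37.3), and Lss, which closes the rings to lanosterol, in mixed neurons (12 to 19.4). Cyp51, which demethylates lanosterol, had its highest mean in mixed neurons (43.5 to 90.6 CPM), as did Dhcr7, a last reductase of the pathway (13.4 to 35.9). Tm7sf2, a sterol reductase, had its highest mean in fibroblasts (0 to 65.6 CPM from 8 UMIs), Nsdhl, a sterol dehydrogenase, in astrocytes (10.5 to 17.9), and Hsd17b7, a reductase that works with it, in OPC (6.78 to 25.5). Ebp, a sterol isomerase, had its highest mean in oligodendrocytes (16.4 to 33.8 CPM), as did Sc5d, a desaturase (21.6 to 47.1). Stard4 had its highest mean in fibroblasts (0 to 21.4 CPM from 4 UMIs). With so few UMIs the highest class of Mvk, Mvd, Tm7sf2 and Stard4 is uncertain.

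Between astrocytes and excitatory neurons, the 2 largest classes, most of the separated members were higher in astrocytes in CPM and higher in neurons per nucleus. With at least 20 UMIs over the pair in every library there were 29 members, of which in CPM 13 were higher in astrocytes without overlap and 1, Elovl6, was higher in neurons. Among 14489 genes, 32.1% were higher in astrocytes without overlap and 28.4% higher in excitatory neurons. The 13 were Hmgcs1, Mvd, Idi1, Sqle, Msmo1, Nsdhl, Srebf1, Srebf2, Insig1, Fasn, Acaca, Scd2 and Acly, with mean ratios of 17.1 for Srebf1, 5.96 for Scd2, 4.61 for Msmo1, 2.44 for Insig1, 2.20 for Hmgcs1, 2.03 for Acaca and 1.88 for Srebf2. In UMIs per nucleus 3 members, Msmo1, Srebf1 and Scd2, were higher in astrocytes without overlap and 12 higher in excitatory neurons, where 9.37% and 70.8% of the 14489 genes were. The other 10 of the 13 overlapped per nucleus, and Hmgcs1, Mvd, Idi1, Sqle, Srebf2, Acaca and Acly then had the higher median in neurons. Between oligodendrocytes and astrocytes, Acaca and Scd2 were higher in oligodendrocytes and Hmgcs1 and Msmo1 higher in astrocytes without overlap, of 23 members, where 18.1% and 26.3% of 9938 genes were. Between excitatory and inhibitory neurons, Fdft1 was higher in excitatory neurons (31.7 to 38.6 against 18.3 to 24.6 CPM) and Acaca and Elovl6 were higher in inhibitory neurons, of 29 members, where 14% and 21.6% of 14330 genes were. Per nucleus, Fdft1 stayed apart and Acaca and Elovl6 overlapped. Astrocyte clusters 1 and 3 were separated by 0 of 19 members, and 5.44% of 8633 genes were higher in cluster 1 and 7.96% higher in cluster 3.

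Within excitatory neurons, the authors' clusters differed in Elovl6 and Hmgcs1. Cluster 1 held Mpped1, a gene of CA1 pyramidal cells, at 174 to 205 CPM, clusters 2 and 3 held Prox1, a factor of dentate granule cells, at 208 to 245 and 283 to 375, and cluster 4 held Grik4, a receptor gene high in CA3, at 922 CPM or more, against 28.9 to 46.7 in cluster 1. These 3 genes were picked after seeing the data, and the clusters are called by number. Elovl6 was 75.2 to 96.0 CPM in cluster 1, 34.2 to 42.4 in cluster 2, 58.4 to 69.7 in cluster 3 and 65.2 to 78.7 in cluster 4. Cluster 2 lay below the other 3 without overlap, and cluster 3 lay below cluster 1. Hmgcs1 was 13.4 to 19.0 CPM in cluster 1, 2.68 to 9.56 in cluster 2, 5.82 to 12.6 in cluster 3 and 19.2 to 29.8 in cluster 4. Clusters 2 and 3, which both held Prox1, overlapped in Hmgcs1 and lay below clusters 1 and 4.

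Comparing cluster 1 with clusters 2 and 3 summed, Hmgcs1, Hsd17b7, Srebf2 and Elovl6 were higher in cluster 1 without overlap, and Ebp and Acly lower, of 24 members, where 14% and 19.2% of 11662 genes were higher and lower. The mean ratio of cluster 1 to the sum was 2.34 for Hmgcs1, 3.58 for Hsd17b7, 1.48 for Srebf2 and 1.70 for Elovl6, and that of the sum to cluster 1 was 2.15 for Ebp and 1.73 for Acly. Per nucleus, those 4 were among 9 members higher in cluster 1, and 0 were higher in the sum, with Ebp and Acly overlapping. A library held 304 to 646 nuclei with 2292349 to 2810851 UMIs in cluster 1. In the sum it held 585 to 972 nuclei with 2443547 to 3231711 UMIs, so this scale favours cluster 1. Comparing cluster 1 with cluster 4, no member was higher in cluster 1, and Hmgcs1, Insig2 and Acaca were higher in cluster 4, of 18, where 13.5% and 10.3% of 10426 genes were. Acaca was 78.6 to 107 CPM in cluster 1 and 130 to 160 in cluster 4. Per nucleus, 4 members were higher in cluster 4, Insig2 among them, and Hmgcs1 and Acaca overlapped. Clusters 2 and 3 were separated by Ebp, higher in cluster 2, and by Insig1 and Elovl6, higher in cluster 3, of 15 members, where 5.92% and 6.93% of 9742 genes were. Per nucleus, Insig1 and Elovl6 stayed apart and Ebp overlapped. For none of these cluster pairs was the share of all genes computed per nucleus, so those counts have no background.

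**Figure D3:**
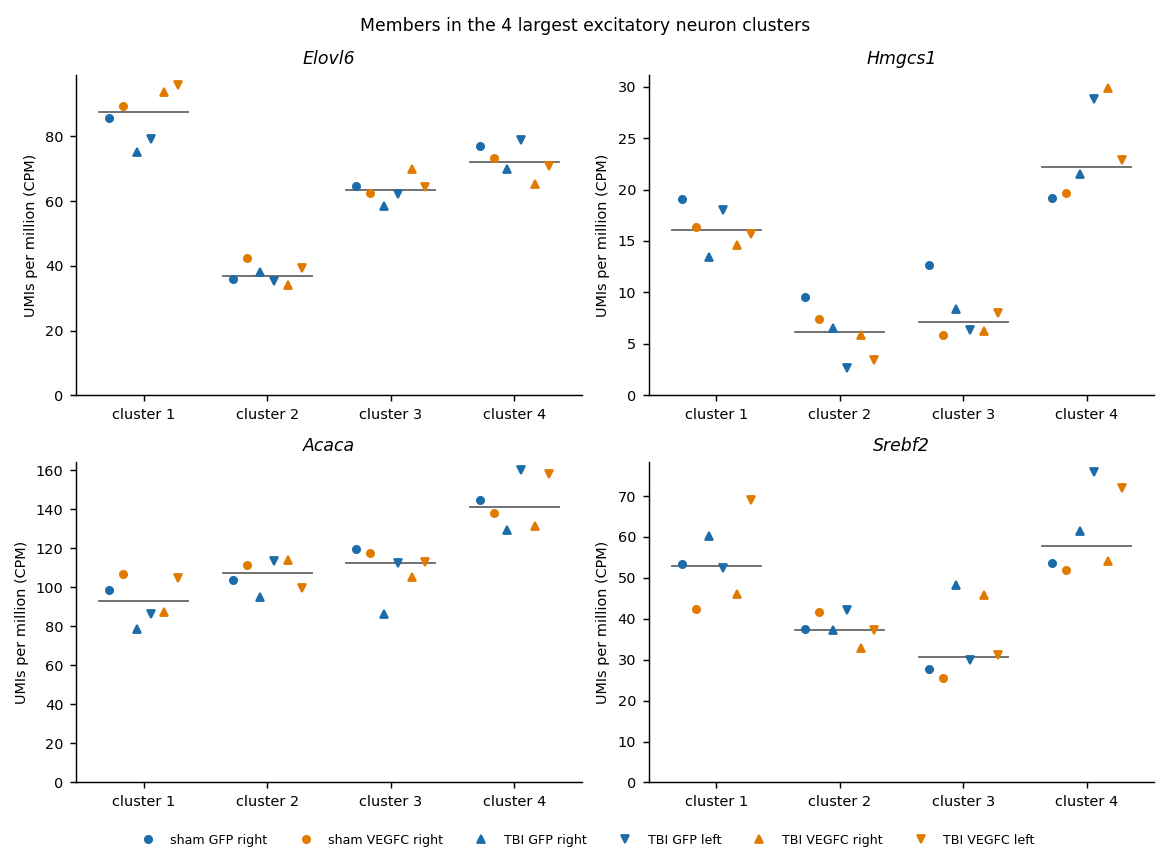
Levels of Elovl6, Hmgcs1, Acaca and Srebf2 in CPM (vertical axes, from 0) in the 4 largest excitatory clusters, with 1 point per library and a line at the median of the 6 libraries. Cluster 2 has the lowest Elovl6 points (34.2 to 42.4 CPM), and Hmgcs1 is lower in clusters 2 and 3 than in clusters 1 and 4.

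Across the 30 clusters with at least 100 nuclei, and among members with at least 1000 UMIs, the pooled levels most alike in rank were Msmo1 and Insig1 (Spearman's rho 0.69), Msmo1 and Srebf2 (0.69), Srebf2 and Insig1 (0.68), and Msmo1 and Scd2 (0.68). Acaca and Scd2 had a rho of 0.62. Insig2 ran the other way from Elovl6 (rho -0.56) and Cyp51 (-0.47). The clusters come from the same 6 libraries and differ in depth, so these are descriptions.

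The first comparison between conditions asked whether AAV-VEGFC changed the members, with AAV-GFP as the control, over sham right, TBI right and TBI left. No member passed the threshold (Benjamini-Hochberg adjusted p below 0.05 in edgeR's quasi-likelihood test) in any class: 0 of 154 pairs of member and class passed, and 0.0281% of 81848 pairs of gene and class did. At an unadjusted p below 0.05 there were 4 member pairs, or 2.6%, against 5.41% of all pairs, and DESeq2 called 0, with 0 at an unadjusted p below 0.05. In the subsets of excitatory cluster 1, clusters 2 and 3, and cluster 4, 0 of 71 pairs passed, with 6 at an unadjusted p below 0.05, and 0.0196% of 35767 pairs of all genes passed. The number of members deep enough to test was 30 in astrocytes, 29 in excitatory neurons, 27 in inhibitory neurons, 19 in oligodendrocytes, 18 in mixed neurons, 16 in choroid plexus, 10 in OPC, 3 in fibroblasts and 2 in microglia. The standard error (SE) of a log2 fold change over the class pairs ran from 0.07 to 0.61, with a median of 0.24. Passing takes a change well above its SE, since Hmgcs1 in excitatory neurons, at log2 -0.28 with SE 0.11, did not pass. Changes larger than the median SE could thus be missed for many members.

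None of the 6 members with 1 highest class passed with the vector. The log2 fold change was 0.03 for Acaca in oligodendrocytes (95% interval -0.18 to 0.24) and -0.10 for Scd2 in oligodendrocytes (-0.30 to 0.10). It was -0.17 for Msmo1 in astrocytes (-0.41 to 0.06), -0.08 for Srebf1 in astrocytes (-0.33 to 0.16) and -0.10 for Elovl6 in choroid plexus (-0.37 to 0.17). Each of these 5 intervals holds 0 and excludes a change of 1 log2 unit. For Scd1 in oligodendrocytes, from 54 UMIs, the value was 0.13 and the interval, -0.79 to 1.06, does not exclude it.

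The 5 pairs with the smallest p, none past the threshold, were in excitatory neurons and their subsets. They were picked by p from the values below, so how far their libraries separate adds no support. Insig1 in cluster 4 was 23.3, 10.8 and 17.3 CPM with AAV-GFP (sham right, TBI right and TBI left) and 11.4, 9.32 and 6.25 with AAV-VEGFC, from 6 to 23 UMIs a library (log2 -0.88, SE 0.34, edgeR adjusted p 0.697). Acat2 in cluster 4 was 15.2, 14.6 and 10.6 CPM with AAV-GFP and 8.23, 6.52 and 5.21 with AAV-VEGFC (log2 -0.98, SE 0.38, edgeR adjusted p 0.712). Both were lower with AAV-VEGFC in each of the 3 contexts, and for Acat2 the 2 groups did not overlap. Elovl6 in cluster 1 was 85.5, 75.2 and 79.2 CPM with AAV-GFP and 89.3, 93.8 and 96.0 with AAV-VEGFC, higher in all 3 contexts (log2 0.25, SE 0.10, edgeR adjusted p 0.826). Hmgcs1 in all excitatory neurons was 20.5, 18.0 and 19.9 CPM with AAV-GFP and 16, 15.9 and 15.3 with AAV-VEGFC (log2 -0.28, SE 0.11, edgeR adjusted p 0.739). Insig1 there was 15.3, 10.3 and 12.5 CPM with AAV-GFP and 13.6, 7.89 and 8.59 with AAV-VEGFC (log2 -0.33, SE 0.13, edgeR adjusted p 0.739). The AAV-VEGFC values of Hmgcs1 lay below all 3 AAV-GFP values, and those of Insig1 overlapped them.

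In excitatory neurons the fitted log2 fold changes of the 29 tested members had a median of -0.07, with 20 below 0, and the median over all genes tested was -0.003, with 50.9% below 0. With nuclei of a doublet score of at most 0.05 the median of the members was -0.12. Of the 18 cholesterol enzymes 14 were below 0, with a median of -0.12. An earlier analysis of these data had pointed to this list in this class, so the count is not independent evidence. The cholesterol enzymes with the smallest p after Hmgcs1 were Sqle (log2 -0.25, 95% interval -0.52 to 0.03), Fdft1 (-0.16, -0.34 to 0.02), Acat2 (-0.31, -0.67 to 0.05) and Pmvk (-0.23, -0.54 to 0.09). Of 28 members with at least 20 UMIs in every library, 11 were lower with AAV-VEGFC in all 3 contexts and 0 higher in all 3, where 17.9% and 9.92% of 13346 genes were. The 11 were Hmgcs1, Mvk, Pmvk, Idi1, Fdft1, Sqle, Lss, Sc5d, Acat2, Srebf1 and Insig1, of which 9 are cholesterol enzymes. In the unfitted CPM, the median log2 ratio of AAV-VEGFC over AAV-GFP over the 18 enzymes was -0.09 for the sham pair, -0.14 for the right TBI pair and -0.21 for the left TBI pair, and that over all genes was 0.01, -0.04 and -0.06. The shares of excitatory clusters differed between libraries (cluster 3 made up 12.2% to 22.1% and cluster 10 0.272% to 5.46% of the class), and with each cluster set to its mean share the median of the 29 members was -0.08. In inhibitory neurons 20 of 27 members were below 0 with the same vector, where 50.6% of all genes were. Their median was -0.11, with a median SE of 0.19, and that over all genes was -0.002. None of the 27 had an unadjusted edgeR p below 0.05. Below 0 were also 13 of 18 members in mixed neurons (median -0.15, median SE 0.34) and 7 of 10 in OPC (-0.08, median SE 0.37), where 49.9% and 49% of all genes were. All classes come from the same libraries, so these counts are not independent of each other. In astrocytes the median over 30 members was 0.001, with 15 on each side of 0, and in oligodendrocytes it was 0.02 over 19 members.

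**Figure D4:**
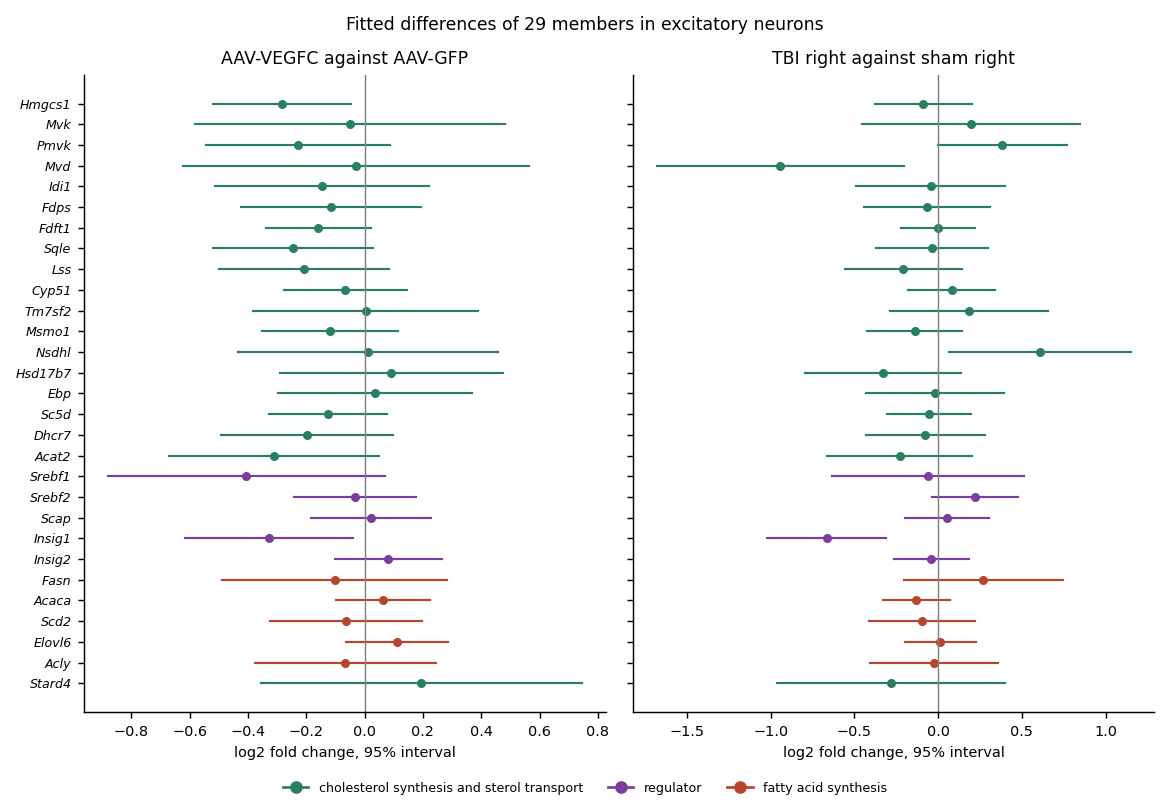
Fitted log2 fold changes (horizontal axes) of 29 members in excitatory neurons with 95% intervals, for AAV-VEGFC against AAV-GFP (left) and TBI right against sham right (right), coloured by role. On the left 20 of 29 points lie below 0 and most intervals cross it, and no member passed the adjusted threshold in either panel.

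The second comparison asked whether the members differed between the injured right hippocampus and the right hippocampus after a sham operation, over both vectors. In the classes 0 of 154 member pairs passed, and 0.0782% of 81848 pairs of all genes did. At an unadjusted p below 0.05 there were 8 member pairs, or 5.19%, against 5.03% of all pairs, and DESeq2 called 0, with 1 at an unadjusted p below 0.05. In the 3 excitatory subsets 0 of 71 pairs passed, with 5 at an unadjusted p below 0.05, and 0.0951% of 35767 pairs of all genes passed. The smallest p belonged to Insig1 in excitatory neurons, which was 15.3 and 13.6 CPM in sham (AAV-GFP, then AAV-VEGFC) and 10.3 and 7.89 in TBI right (log2 -0.66, SE 0.16, 95% interval -1.02 to -0.31, edgeR adjusted p 0.731). Both TBI right values lay below both sham values, and the TBI left values were 12.5 and 8.59 CPM. Having been picked by its p, the pair gains no support from this order.

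The next 4 pairs did not pass either. Idi1 in cluster 4 was 4.05 and 4.43 CPM in sham and 13.1 and 11.2 in TBI right, from 4 to 17 UMIs a library (log2 1.46, SE 0.54, edgeR adjusted p 0.834). Mvd in excitatory neurons was 4.06 and 3.35 CPM in sham and 1.53 and 2.29 in TBI right (log2 -0.94, SE 0.33, edgeR adjusted p 0.973). Nsdhl in cluster 1 was 2.54 and 2.49 CPM in sham and 7.29 and 4.33 in TBI right (log2 1.2, SE 0.50, edgeR adjusted p 0.705). Acaca in cluster 1 was 98.6 and 107 CPM in sham and 78.6 and 87.5 in TBI right (log2 -0.28, SE 0.12, edgeR adjusted p 0.755). In each of the 4 the sham and TBI right values did not overlap. They were picked by p from these same values, so this adds no support. In oligodendrocytes, Acaca had a log2 fold change of 0.03 (95% interval -0.23 to 0.28) and Scd2 of -0.09 (-0.33 to 0.15), and in astrocytes Msmo1 had one of 0.22 (-0.06 to 0.50).

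The third comparison set the left hippocampus against the right after TBI. In the classes 0 of 154 member pairs passed, and 0.0318% of 81848 pairs of all genes did. At an unadjusted p below 0.05 there were 5 member pairs, or 3.25%, against 3.49% of all pairs, and DESeq2 called 0, with 1 at an unadjusted p below 0.05. In the excitatory subsets 0 of 71 pairs passed, with 1 at an unadjusted p below 0.05, and 0% of 35767 pairs of all genes passed. The smallest p belonged to Srebf1 in oligodendrocytes, which was 76.2 and 64.1 CPM on the left (AAV-GFP, then AAV-VEGFC) and 34.4 and 28.8 on the right, from 16 to 43 UMIs over the 6 libraries (log2 1.15, SE 0.29, 95% interval 0.57 to 1.72, edgeR adjusted p 0.196). Both left values lay above both right values, and the sham right values, 53.2 and 50.8 CPM, lay between them. The pair was picked by its p from these values, so this order adds no support. The next smallest p belonged to Nsdhl in clusters 2 and 3 (4.91 and 6.72 CPM right, 2.17 and 3.02 left, log2 -1.18, SE 0.49) and Pmvk in oligodendrocytes (16.5 and 23.4 CPM right, 4.48 and 7.46 left, log2 -1.61, SE 0.70). In inhibitory neurons they were Hsd17b7 (8.11 and 10.8 CPM right, 5.37 and 3.58 left, log2 -1.02, SE 0.38) and Cyp51 (40.2 and 39.1 right, 32.7 and 25 left, log2 -0.44, SE 0.16). For these 4 the edgeR adjusted p was 0.998 or 1.

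The fourth comparison asked whether the effect of AAV-VEGFC differed between TBI and sham. Here both TBI sides counted as replicates of each other, and it rests on 1 sham library per vector. In the classes 1 of 164 member pairs passed, and 0.221% of 89079 pairs of all genes did. At an unadjusted p below 0.05 there were 12 member pairs, or 7.32%, against 7.24% of all pairs, and DESeq2 called 0, with 3 at an unadjusted p below 0.05. In the excitatory subsets 0 of 76 pairs passed, with 4 at an unadjusted p below 0.05, and 0.301% of 37560 pairs of all genes passed.

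The pair that passed was Fdft1, squalene synthase, in oligodendrocytes. Its level was 53.2 CPM in sham AAV-GFP right (26 UMIs) and 9.67 in sham AAV-VEGFC right (4 UMIs). After TBI it was 19.5 CPM with AAV-GFP right (13 UMIs), 45.0 with AAV-VEGFC right (25 UMIs), 17.9 with AAV-GFP left (8 UMIs) and 25.4 with AAV-VEGFC left (17 UMIs). With AAV-VEGFC it was thus lower in sham and higher on both sides after TBI. The ratio of AAV-VEGFC to AAV-GFP was 0.182 for sham (exact 95% interval 0.0461 to 0.524, counting error only), 2.31 for the right side after TBI (1.14 to 4.93) and 1.41 for the left (0.578 to 3.79). The difference of log2 effects was 3.34 (SE 0.76, 95% interval 1.85 to 4.82, edgeR adjusted p 0.0111), in a class where 0.17% of 8806 genes were called.

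The call on Fdft1 rests on 93 UMIs in 87 nuclei, of which 1 nucleus gave at most 2.15%. Its SE and adjusted p rest on a spread shared over all genes tested in the class, not on the spread of Fdft1 alone. Without the TBI AAV-VEGFC right library (replicate 5) the difference was 2.90 with an edgeR adjusted p of 0.913, and DESeq2 gave 3.40 with an adjusted p of 1. The additive model over the 3 contexts, which averages these opposite ratios, gave a log2 fold change of 0.01 (95% interval -0.60 to 0.62). In the other tested classes the same difference of effects was between -0.73 (mixed neurons, SE 0.66) and -0.08 (excitatory neurons, SE 0.16), and none passed. Ctsb, whose gene overlaps Fdft1 on the opposite strand, was 92.5 to 141 CPM in oligodendrocytes, with 106 and 114 in the sham libraries. In the same nuclei the 4 excitatory neuron markers summed to 49.1 to 116 CPM, with 49.1 and 60.4 in sham AAV-GFP and sham AAV-VEGFC, and the 4 choroid plexus markers to 414 to 976, with 661 and 965, of which Otx2 was at 0. Their part in the result was not tested.

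**Figure D5:**
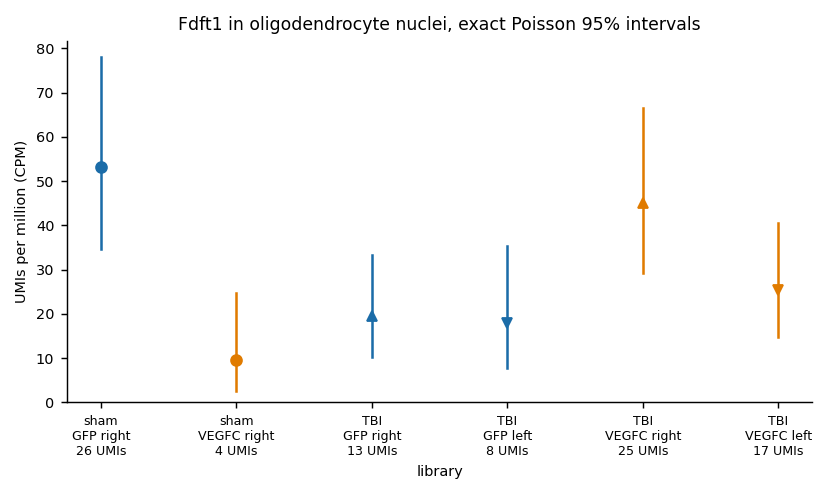
Fdft1 in oligodendrocyte nuclei of each library in CPM (vertical axis, from 0), with exact Poisson 95% intervals that cover counting error only. The sham AAV-GFP (53.2 CPM) and TBI AAV-VEGFC right (45.0 CPM) libraries are highest and sham AAV-VEGFC (9.67 CPM) is lowest.

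The pairs with the next smallest p did not pass. Insig1 in choroid plexus was 20.4 CPM with AAV-GFP and 45.7 with AAV-VEGFC in sham, and 36.5 and 35.3 with AAV-GFP against 17.7 and 8.73 with AAV-VEGFC after TBI (right, then left; log2 -2.60, SE 0.68, edgeR adjusted p 0.106). Scd2 in excitatory neurons was 54.2 CPM with AAV-GFP and 70.1 with AAV-VEGFC in sham, and 65.3 and 66.3 against 50.6 and 54.4 after TBI, from 442 to 754 UMIs a library (log2 -0.64, SE 0.14, 95% interval -0.93 to -0.34, edgeR adjusted p 0.107). Scd2 thus stood higher with AAV-VEGFC in sham and lower on both sides after TBI. The same direction was seen in clusters 2 and 3 (51.6 and 62.2 CPM in sham, 51.5 and 54.1 against 41.3 and 39.2 after TBI, log2 -0.64, SE 0.23, edgeR adjusted p 0.304) and in cluster 1 (log2 -0.60, SE 0.23, edgeR adjusted p 0.331). Their nuclei are part of the excitatory class, so these values are not independent of it. Scd2 in excitatory neurons crossed the threshold only without replicate 3 or 4, the TBI AAV-GFP libraries, and in no other setting tried. Each of those fits keeps 1 library of that group, so no call is drawn from them. Cyp51 in astrocytes was 44.0 CPM with AAV-GFP and 28.1 with AAV-VEGFC in sham, and 28.9 and 35.4 against 50.4 and 36.7 after TBI (log2 1.13, SE 0.35, edgeR adjusted p 0.33).

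Of 56 other genes of these pathways, such as Abca1 and the Fads desaturases, 0 of 306 pairs of gene and class passed with AAV-VEGFC against AAV-GFP, in either direction. The count was also 0 of 306 for TBI right against sham right and for left against right, and 0 of 329 for the difference of vector effects. In excitatory neurons with AAV-VEGFC against AAV-GFP, 22 of the 51 tested had a log2 fold change above 0 and 29 below, with a median of -0.02.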

How the data were processed

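The authors deposited raw UMI counts per nucleus and gene, with classes, clusters and a doublet score per nucleus (at most 0.099, tool not given in the sources used here). Cell Ranger 7.0.1, Scanpy and mm10 are named in the submitters' processing notes. All deposited nuclei were kept and no doublet caller was run. No score cut was used in the main values, and values at a doublet score of at most 0.05 are named as such. Counts were summed per class (and per excitatory subset) and library and tested on all genes with edgeR 4.0.16 in R 4.3.3 (filterByExpr, TMM normalization, quasi-likelihood test, Benjamini-Hochberg adjustment within class and comparison, threshold 0.05). The additive model had terms for context and vector, with 2 residual degrees of freedom. The fourth comparison used the interaction of injury and vector, also with 2. In both models edgeR moved the spread of each gene toward a trend over all genes tested. In the interaction fit of oligodendrocytes the prior degrees of freedom were infinite, so the trend alone set the spread. SE is the absolute log2 fold change divided by the square root of F. DESeq2 1.42.0 was an alternative. The edgeR step was tested on simulated data for the vector term of the additive model only. The interaction fit, which gave the call on Fdft1, was not covered. Coordinates are from GENCODE on mm10, promoter windows from RefSeq.

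The members and lists were chosen with earlier results of these data known. The text accounts for all 30 members, gives values in every library for pairs past the threshold and, where fewer than 5 passed, also for the 5 pairs with the smallest p, and compares Scd1 with Scd2, Insig1 with Insig2 and Srebf1 with Srebf2 in every class.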

Additional observations from a re-analysis of the deposited data

Results flagged for a closer look

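For Fdft1 in oligodendrocytes, the edgeR interaction test gave a log2 difference of 3.34 between the AAV-VEGFC effects in TBI and in sham (SE 0.76, adjusted p 0.0111). The call was lost with DESeq2 (adjusted p 1) and without replicate 5 (edgeR adjusted p 0.913). Sham has 1 library per vector, so only left and right TBI libraries serve as replicates. The labels do not say whether those share mice. In this fit edgeR took each gene's spread from a trend over all genes tested. The SE and adjusted p thus do not measure the spread of Fdft1 itself. The direction was down in the 1 sham pair of libraries and up in both TBI pairs, from 4 to 26 UMIs a library.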

How the results depend on the processing

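Counts past the threshold for AAV-VEGFC against AAV-GFP, TBI right against sham right and left against right were 0 in each setting tried (scaling by RLE or by totals, all genes kept, DESeq2, the context or vector term dropped, a doublet score of at most 0.05, each replicate left out). For the difference of vector effects, the count of 1 became 0 with DESeq2 and ran from 0 to 2 when replicates 3 to 6 were left out in turn. Without replicates 1 or 2 it could not be fitted, since each is the only sham library of its vector. The median log2 fold change of the members in excitatory neurons moved from -0.07 to -0.12 with a doublet score of at most 0.05, and ran from -0.10 to -0.05 without each replicate. At that doublet limit mixed neurons, microglia and fibroblasts had too few nuclei, and 7 members, Hmgcs1 in addition, had 1 highest class. The replicate numbers 1 to 6 are each used once, so they pair no samples. The vector comparison was blocked by its 3 contexts, and without that term 0 pairs passed as well. Depth also limits the precision: Scd1, Mvd, Mvk and Stard4 had 212 to 344 UMIs in all. In UMIs per nucleus, a scaling added after seeing the data, the members separated between astrocytes and excitatory neurons went from 13 and 1 to 3 and 12.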
